A study of Homo sapiens with 9 samples.

Results

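The Fc receptor genes described here are 8 genes measured in the Hodgkin lymphoma cell line L-1236: FCER1A, FCER1G, FCGR1A, FCGR2A, FCGR2B, FCGRT, FCRLA and FCRL5. They were taken by gene symbol from the table of array values, where each symbol had 1 row, so 8 of the 20893 transcript clusters tested were members and none was lost to a filter. Fc receptors bind the constant part of antibodies and couple antibody-coated targets to the cell that carries the receptor. Activating receptors signal through a tyrosine motif called ITAM, either in their own tail or in the shared gamma chain encoded by FCER1G, and inhibitory ones through a motif called ITIM. In blood and tissue they mark mast cells, basophils, monocytes and B cells, and the Hodgkin cell itself derives from a B cell that has lost much of its B cell programme.

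RNA was measured on Clariom S arrays, 3 for each of 3 groups, all of L-1236 transduced with a lentiviral vector for Cas9 that the labels spell lentiCRIPSPR_v2. Clone g2_1 (genotype lentiCRIPSPR_v2-LTA_g2) had its LTA gene cut in the second exon, and clone g3_4 (genotype lentiCRIPSPR_v2-LTA_g3) in the fourth. The product of LTA is lymphotoxin alpha, a cytokine of the TNF family. The control, v2 (genotype lentiCRIPSPR_v2), is called wild type in its titles. Each knockout group was 1 single-cell clone, maintained in L-1236 conditioned medium, and RNA was taken after 72 h in normal medium. Whether the control was also a single-cell clone, or was maintained in conditioned medium, is not stated in the labels, so the knockout, clonal origin and earlier medium cannot be told apart. They also do not state that the 3 arrays of a group were separate cultures; the p-values therefore cover only the spread between these samples, and that spread may be technical.

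Values are log2 signals as deposited, after RMA. They ran from 3.53 to 13.87 with a first quartile of 4.64 over all arrays, and a transcript cluster below that quartile is treated here as near the array's floor. A gene was called where limma's Benjamini-Hochberg adjusted p over all 20893 transcript clusters was under 0.05, and log2 fold changes are clone minus control. LTA itself averaged 7.54 ± 0.43 in g2_1 and 6.93 ± 0.32 in g3_4, against 11.24 ± 0.29 in control cells (SD, n = 3 each). None of the 10 Hodgkin markers lay below the first quartile on all arrays. Among them TNFRSF8 (CD30) lay between 11.72 and 12.01 on the clone arrays and between 10.91 and 11.25 on the control arrays. Of 8 measured B cell markers, 1, MS4A1 (CD20), lay below the first quartile on all 9 arrays. The mean of the 8 on an array lay between 6.64 and 6.88. IRF4, a further Hodgkin marker, lay between 11.94 and 12.05 on the clone arrays and between 11.76 and 11.92 on the control arrays. Other Hodgkin markers went the other way, as GATA3 and CD274 fell by averaged log2 fold changes of -1.46 and -2.20. In both clones 1 of the 10 was called higher (4.48% of all transcript clusters) and 2 lower (6.97%). In such bulk RNA, fewer cells with a transcript and less of it per cell cannot be told apart.

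Of the 8 members, 3 were lower in the LTA knockout clones and 5 did not pass the test. FCER1A, FCGR2A and FCGR2B were called lower in g2_1, where 8.06% of all transcript clusters were called lower, in g3_4, where 8.16% were, and in the clones averaged, where 9.83% were. The same 3 passed in both clones, against 6.97% of all transcript clusters called lower in both. None was called higher in g2_1 (6.19% of all transcript clusters), g3_4 (6.12%), the average (8.13%) or both clones (4.48%). All 6 clone arrays lay below all 3 control arrays for 4 of the 8, the 3 called genes and FCER1G, as for 10.6% of all transcript clusters. The median log2 fold change of the 8 members, clones averaged, was -0.17, and that of all transcript clusters was 0.04. Between g2_1 and g3_4 themselves, 0 of the 8 passed in limma and 0 with unequal variances, against 0.0526% of all transcript clusters in limma. The 95% interval of FCGR2B for that difference left out 0 (-0.69 to -0.01) but did not pass in limma (adjusted p = 0.997). The intervals of the other 7 held 0. The share of all transcript clusters with an interval that left out 0 was not taken, so no difference between the clones is read from this.

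**Figure D1:**
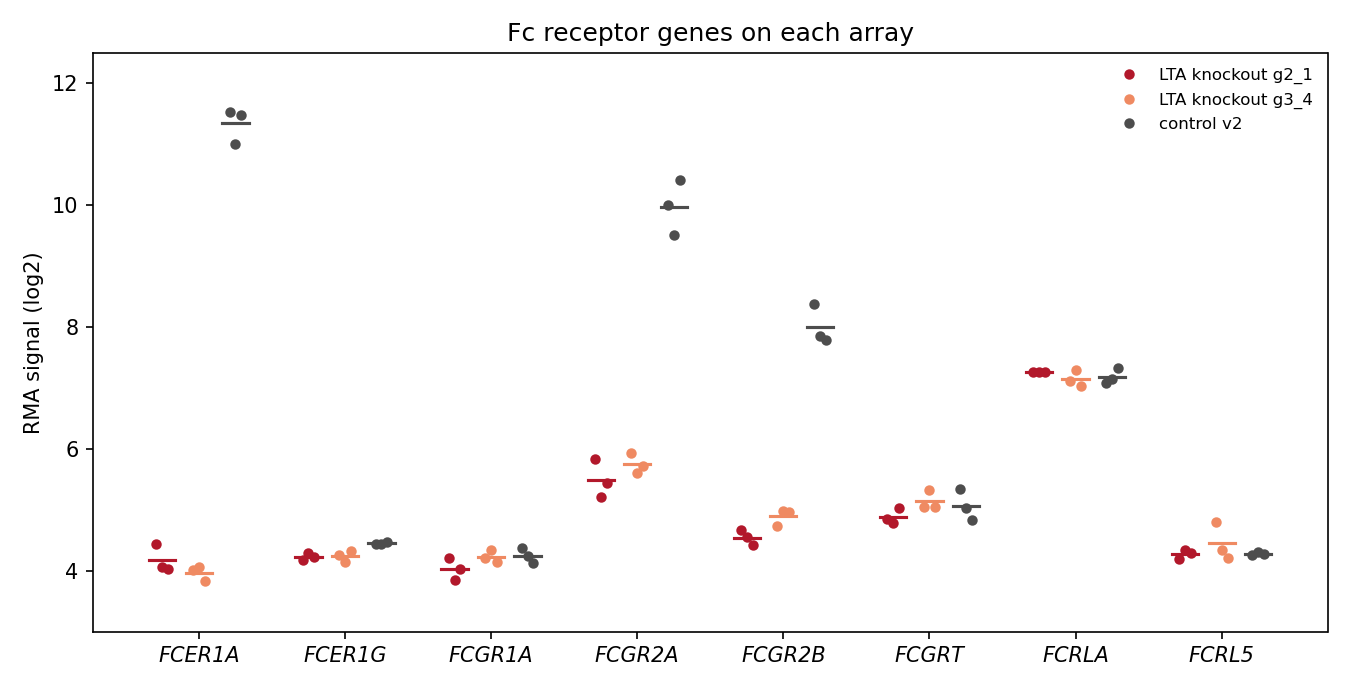
Log2 signal of the 8 Fc receptor genes on each array, with clone g2_1 and clone g3_4 left of control v2. Points are single arrays and bars the group means. FCER1A, FCGR2A and FCGR2B lie lower on all 6 clone arrays, with gaps of 6.57, 3.58 and 2.80 log2 units to the lowest control array.

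The promoters of the members that fell are shown beside those of a pair of relatives that did not pass the test, since they share a stretch of sequence. Each line gives the 250 bases before the RefSeq gene start, 5′ to 3′ on the gene's own strand, in build GRCh38.p14. All 8 members matched an entry of the promoter table. Capitals mark the ETS core, AGGAA read on either strand, which is the short sequence that ETS factors such as PU.1 bind.

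FCER1A (chr1:159302086-159302335, plus strand): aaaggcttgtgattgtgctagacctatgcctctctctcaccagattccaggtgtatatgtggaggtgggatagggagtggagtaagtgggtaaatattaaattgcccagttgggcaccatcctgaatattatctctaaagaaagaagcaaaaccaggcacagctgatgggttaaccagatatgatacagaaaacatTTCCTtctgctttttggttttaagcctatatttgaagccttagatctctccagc

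FCGR2A (chr1:161505207-161505456, plus strand): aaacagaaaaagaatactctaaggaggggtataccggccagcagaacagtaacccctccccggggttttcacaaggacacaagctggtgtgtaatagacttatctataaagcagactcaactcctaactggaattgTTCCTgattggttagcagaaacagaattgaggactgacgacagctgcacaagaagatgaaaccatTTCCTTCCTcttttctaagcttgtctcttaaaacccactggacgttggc

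FCGR2B start 1 (chr1:161646993-161647242, plus strand): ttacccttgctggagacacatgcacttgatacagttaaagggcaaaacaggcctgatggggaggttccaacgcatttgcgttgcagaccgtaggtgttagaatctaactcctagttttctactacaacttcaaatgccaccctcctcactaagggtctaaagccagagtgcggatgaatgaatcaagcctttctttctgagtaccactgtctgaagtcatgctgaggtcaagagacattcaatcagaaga

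FCGR2B start 2 (chr1:161662893-161663142, plus strand): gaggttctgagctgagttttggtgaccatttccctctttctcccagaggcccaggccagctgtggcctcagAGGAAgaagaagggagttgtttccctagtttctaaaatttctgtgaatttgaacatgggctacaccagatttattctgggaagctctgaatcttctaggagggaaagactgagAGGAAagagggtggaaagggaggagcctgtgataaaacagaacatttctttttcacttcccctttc

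FCGR1A (chr1:149782444-149782693, plus strand): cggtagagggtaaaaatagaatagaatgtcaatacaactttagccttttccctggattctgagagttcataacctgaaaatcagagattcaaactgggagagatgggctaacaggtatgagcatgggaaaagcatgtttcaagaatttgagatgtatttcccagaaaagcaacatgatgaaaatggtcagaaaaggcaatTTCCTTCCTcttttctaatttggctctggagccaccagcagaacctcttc

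FCRLA (chr1:161706979-161707228, plus strand): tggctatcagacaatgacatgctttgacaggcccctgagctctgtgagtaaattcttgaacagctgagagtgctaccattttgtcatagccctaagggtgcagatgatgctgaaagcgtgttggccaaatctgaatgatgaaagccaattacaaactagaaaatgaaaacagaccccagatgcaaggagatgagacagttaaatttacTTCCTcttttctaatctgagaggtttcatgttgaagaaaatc

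An identical run of 20 bases, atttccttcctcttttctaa, begins at position -52 of FCGR1A and -51 of FCGR2A, counted from the gene start, and no other of the 35116 promoter windows of that length in the table held it. FCRLA shares 15 bases of it with FCGR2A, cttcctcttttctaa, and it begins there at -43; 3 windows in all held that run. FCER1A shares 10 bases with FCGR2A, catttccttc, a run found in 29 windows. FCGR2A fell in both clones, while FCGR1A and FCRLA, which hold the longer parts of this run, did not pass the test (values below). FCGR1A lay below the first quartile on all 9 arrays, those of the control included. It had no room to fall, so its lack of a call says nothing about this run. The ETS core was in 56.8% of all windows. It was in those of FCER1A, FCGR2A and the second FCGR2B start, in those of the 5 members that did not pass, and was not in the window of the first FCGR2B start. The GATA core AGATAA, read on both strands, was in 9.17% of windows and in those of FCER1A (at -122) and FCGR2A (at -151). The spaced motif TTCNNNGAA, its own reverse complement and bound by STAT factors, was in 6.57% of windows and in those of FCGR1A and the second FCGR2B start. The kappa B consensus, searched on both strands, was in 9.96% of windows and, of the windows printed, in that of the first FCGR2B start. These are matches of letters in one window and say nothing of binding in these cells.

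FCER1A encodes the alpha chain of FcεRI, the high-affinity receptor for IgE, and this chain holds the antibody on mast cells and basophils. Its log2 signal was 4.44, 4.06 and 4.03 in g2_1 and 4.02, 4.07 and 3.83 in g3_4, against 11.54, 11.01 and 11.49 in control cells. All 6 clone arrays were below the first quartile of the array, and all 3 control arrays were among the high signals. The log2 fold change was -7.17 (SE 0.16, adjusted p = 7.63e-10) in g2_1 and -7.37 (SE 0.16, adjusted p = 7.09e-10) in g3_4. Averaged over the clones it was -7.27 (95% interval -7.58 to -6.96, adjusted p = 1.78e-10), or 154.5-fold lower in the clones, the most negative value of the 20893 transcript clusters in this and in each single-clone comparison. Because the clones lie at the floor, the fold depends on where that floor is set. With all values raised to at least the first quartile it was -6.71. The clones differed from each other by 0.20 (95% interval -0.15 to 0.56).

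FCER1G, the gamma chain that the IgE receptor and several other receptors need at the surface and for signalling, was at the floor in every group. It measured 4.18, 4.30 and 4.23 in g2_1 and 4.26, 4.14 and 4.33 in g3_4, against 4.45, 4.45 and 4.48 in control cells. The clone arrays did not overlap the control arrays, but the averaged difference was -0.22 (95% interval -0.39 to -0.05) and did not pass (adjusted p = 0.0845). Centring each array on its median, which moves the median of all transcript clusters by 0.11, left -0.11 (adjusted p = 0.321). The high control level of FCER1A thus stood beside a gamma chain signal below the first quartile on the same arrays. Of 9 receptor partners of the gamma chain measured (GP6, NCR3, LILRA1, LILRA2, LILRA5, CLEC4C, CLEC4E, CLEC6A and OSCAR), 0 were called in both clones, with averaged differences of -0.03 to 0.23. The beta chain of the IgE receptor, MS4A2, was not analysed here.

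FCGR2A encodes CD32A, an IgG receptor of low affinity with an ITAM in its own tail, so that it does not depend on FCER1G for its signal. It measured 5.84, 5.21 and 5.45 in g2_1 and 5.93, 5.61 and 5.73 in g3_4, against 10.01, 9.51 and 10.42 in control cells. The highest clone array was 3.58 below the lowest control array. The fall was -4.48 (SE 0.22, adjusted p = 2.25e-07) in g2_1 and -4.22 (adjusted p = 3.34e-07) in g3_4. Averaged, it was -4.35 (95% interval -4.77 to -3.93, adjusted p = 5.9e-08), or 20.4-fold lower in the clones.

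FCGR2B encodes CD32B, the inhibitory IgG receptor of B cells, whose ITIM recruits phosphatases against ITAM signals. It measured 4.67, 4.55 and 4.42 in g2_1 and 4.73, 4.99 and 4.97 in g3_4, against 8.38, 7.86 and 7.79 in control cells. The clone arrays lay around the first quartile, and no clone array came within 2.80 of a control array. The fall was -3.46 (SE 0.16, adjusted p = 1.12e-07) in g2_1, -3.11 (adjusted p = 2.37e-07) in g3_4 and -3.29 (95% interval -3.59 to -2.99, adjusted p = 3.52e-08) averaged, or 9.77-fold lower in the clones.

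FCGR2A, FCGR2B and FCGR2C are copies of one another in sequence, and a probe for any of them may read another, so which of them fell, and how far each did, is uncertain. In a test with unequal variances the falls of FCGR2A and FCGR2B no longer passed (adjusted p of 0.0515 and 0.0583 with the clones averaged). FCER1A still passed. A two-sided exact permutation test, 6 clone arrays against 3 control arrays, gave p = 0.0119, the smallest it can give, for FCER1A, FCER1G, FCGR2A and FCGR2B. For 1 clone against control the smallest p is 0.1. Both clones were set against the same 3 control arrays, so their falls are not independent of each other.

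FCGR1A encodes CD64, the high-affinity IgG receptor of monocytes, which signals through the gamma chain. It measured 4.21, 3.85 and 4.04 in g2_1 and 4.21, 4.34 and 4.15 in g3_4, against 4.38, 4.24 and 4.13 in control cells. All arrays were below the first quartile and the groups overlapped, with an averaged difference of -0.12 (95% interval -0.34 to 0.11, adjusted p = 0.525).

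FCGRT encodes the heavy chain of FcRn, a relative of MHC class I that pairs with B2M and carries IgG through cells, sparing it from breakdown. It measured 4.85, 4.78 and 5.03 in g2_1 and 5.05, 5.33 and 5.05 in g3_4, against 5.35, 5.04 and 4.83 in control cells. The arrays overlapped across all groups and the averaged difference was -0.06 (95% interval -0.33 to 0.22, adjusted p = 0.822). Its partner B2M lay between 13.32 and 13.38 on the clone arrays and between 13.09 and 13.24 on the control arrays, an averaged difference of 0.17 that did not pass (adjusted p = 0.157). With arrays centred on their median, B2M was called higher (0.29, adjusted p = 0.0212).

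FCRLA and FCRL5 belong to the Fc receptor-like family of the B cell lineage. FCRLA, which stays inside the cell and binds immunoglobulin there, measured 7.26, 7.27 and 7.26 in g2_1 and 7.11, 7.30 and 7.03 in g3_4, against 7.09, 7.15 and 7.33 in control cells. These arrays overlapped at a level well above the first quartile, and the interval of the averaged difference ran from -0.19 to 0.22 (adjusted p = 0.943). FCRL5, a receptor of B cells and plasma cells with ITIMs, measured 4.19, 4.35 and 4.29 in g2_1 and 4.80, 4.34 and 4.22 in g3_4, against 4.26, 4.31 and 4.28 in control cells. It was near the floor apart from g3_4 array 1, with an averaged difference of 0.08 (95% interval -0.18 to 0.35, adjusted p = 0.732).

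A list of 27 symbols of Fc receptor and related genes, 24 of them measured, placed the members in their family. In both clones 5 of the 24 were called lower, namely the 3 members above, FCGR2C and FCER2, and 0 were called higher. The median averaged difference of the 24 was -0.07. Over all transcript clusters 6.97% were called lower in both and 4.48% higher. By role, the rows of 3 of 7 IgG receptor genes were called lower (FCGR2A, FCGR2B and FCGR2C, whose probes may read each other and may not be separate falls). Of 6 genes for receptors of IgE, IgA or IgM, 2 were called lower (FCER1A and FCER2), and 0 of 8 Fc receptor-like genes were called in both clones. MS4A2 and FCAR of the list were not analysed here. FCGR1B, also on the list, is an earlier symbol of FCGR1BP, which was measured and did not pass (averaged -0.01, adjusted p = 0.96).

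FCER2 encodes CD23, the low-affinity IgE receptor of activated B cells, which is a C-type lectin and no relative of FCER1A in sequence. It measured 6.70, 6.21 and 6.42 in g2_1 and 6.64, 6.95 and 6.91 in g3_4, against 12.21, 12.11 and 12.01 in control cells. The groups were far apart, and the averaged difference was -5.47 (adjusted p = 3.16e-10), with -5.67 in g2_1 and -5.28 in g3_4. With unequal variances the g2_1 value did not pass (adjusted p = 0.0519). Genes for both receptors of IgE were therefore among the falls.

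FCGR2C, an activating relative whose outer part is almost that of FCGR2B, measured 5.42, 5.30 and 5.45 in g2_1 and 5.69, 5.60 and 5.76 in g3_4, against 9.18, 9.0 and 9.49 in control cells. Its averaged difference was -3.69 (adjusted p = 2.53e-09). With unequal variances it did not pass in g2_1 (adjusted p = 0.0686) or g3_4 (adjusted p = 0.0838), but it passed with the clones averaged. The CD16 genes FCGR3A and FCGR3B, IgG receptors of NK cells and neutrophils, did not pass, at -0.08 and 0.09. TRIM21, an IgG receptor of the cytosol, was called higher in g2_1 (0.43, adjusted p = 0.0188) and stood at -0.00 in g3_4. The difference between the clones, 0.43, did not pass (adjusted p = 0.432), and the g2_1 call was lost without g2_1 array 1 (adjusted p = 0.0793) or control array 2 (adjusted p = 0.0568).

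**Figure D2:**
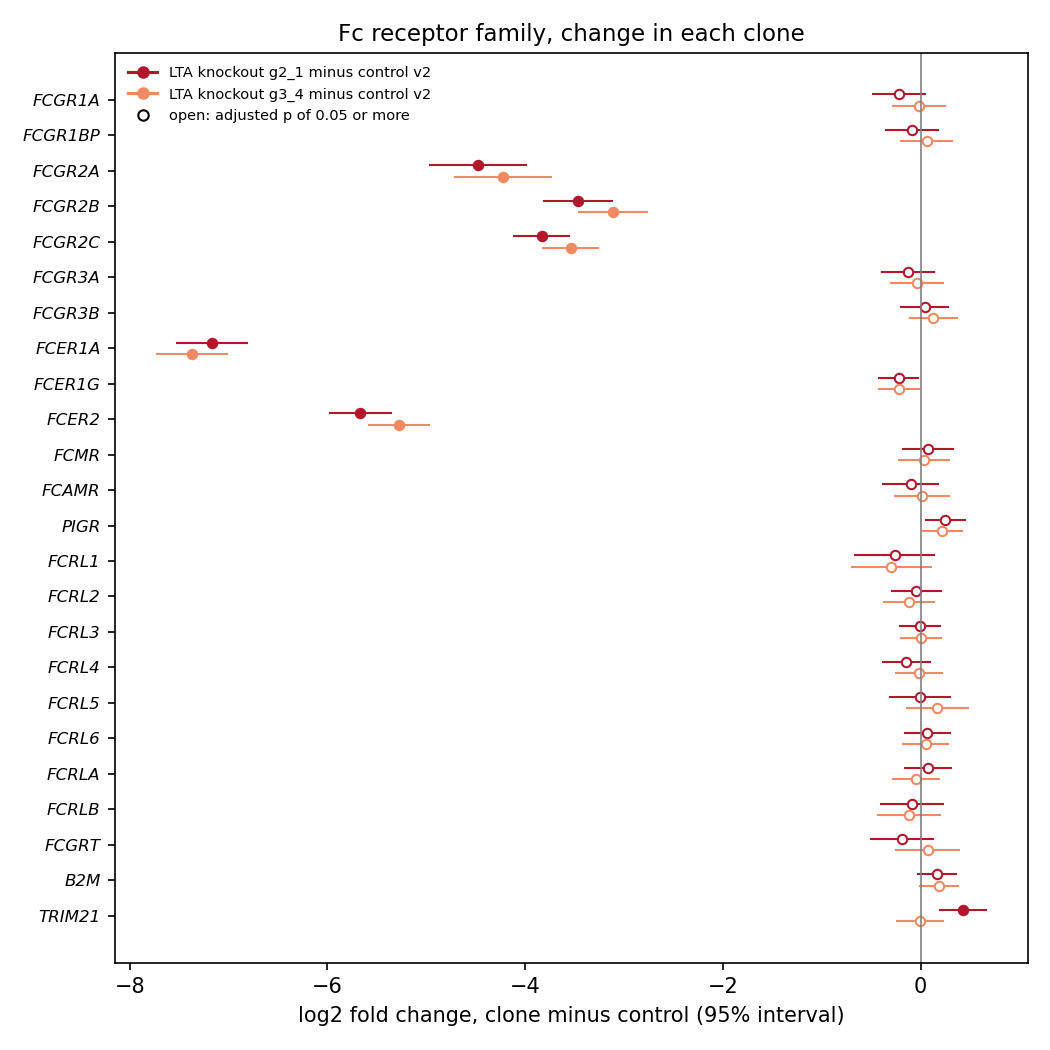
Log2 fold change against control of the 24 measured Fc receptor genes and relatives in clone g2_1 and clone g3_4, with 95% intervals from limma. FCER1A, FCER2, FCGR2A, FCGR2C and FCGR2B stand between -3.11 and -7.37 in the clones, and no other gene is called in both.

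The CD32 genes lie together on chromosome 1 among relatives, so their neighbours were read in RefSeq gene order. Between FCGR2A and FCGR2B lie HSPA6 (0.06), FCGR3A (-0.08), FCGR2C and FCGR3B (0.09), and beyond FCGR2B lie FCRLA (0.02) and FCRLB (-0.10), given as averaged log2 fold changes. The genes that fell thus alternated with genes that did not pass. In control cells, however, FCGR3A and FCGR3B averaged 4.62 and 4.18, below the first quartile (4.64), and HSPA6 averaged 5.55. Genes this low had little room to fall, so the alternation cannot show that they were spared. FCRLA and FCRLB averaged 7.19 and 6.91 in control cells. Of the 25 measured neighbours on each side of FCGR2A, 9 of 50 were called lower and 3 higher in both clones, with a median of -0.02. FCER1A lies apart on the same chromosome, next to ACKR1 (0.26) and OR10J1 (0.13), neither called. Both were also near the floor in control cells, with means of 4.67 and 4.08. Of its 50 neighbours 4 were lower and 1 was higher, which was AIM2, a sensor of DNA in the cytosol (0.89), named after its value was seen. Against the 6.97% of all transcript clusters called lower in both, the neighbours of FCER1A stood at 8%. Those of FCGR2A and FCGR2B stood at 18% each, lists that share genes. Each of these 2 lists counts the other CD32 genes that fell, and those of FCRLA and FCER1G, which lie close by, count the CD32 genes too. Around members that did not pass, the share was 20% (FCER1G and FCRLA), 16% (FCGRT), 6% (FCGR1A) and 0% (FCRL5). The FCER1G and FCRLA lists share genes with those of FCGR2A and FCGR2B, so their shares are no separate comparison. FCER2 lies on chromosome 19, where 3 of 50 neighbours were lower and 4 higher.

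**Figure D3:**
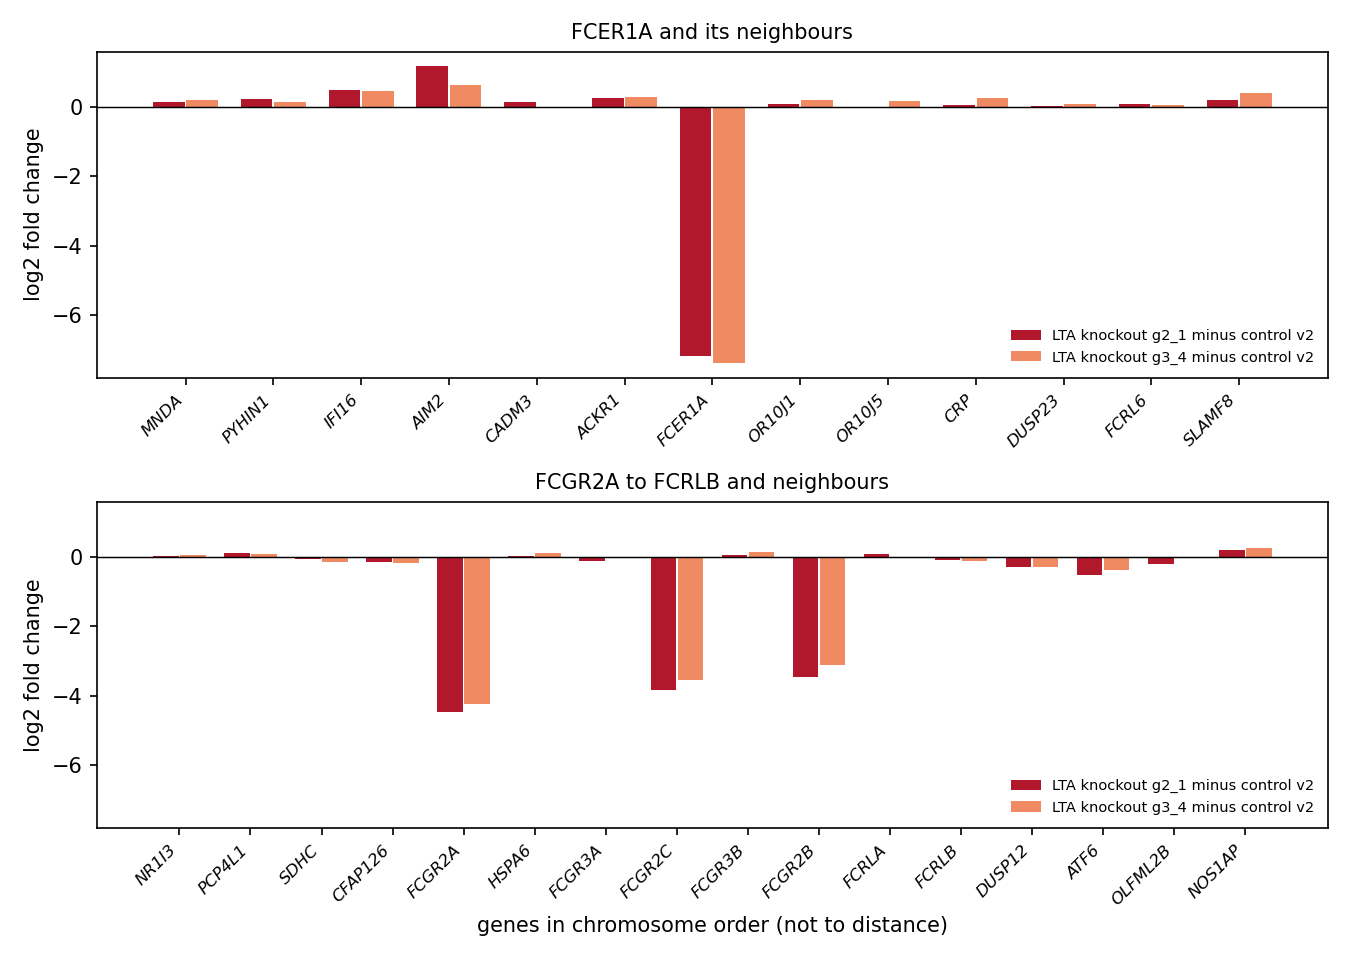
Log2 fold change against control, in clone g2_1 and in clone g3_4, of measured genes in RefSeq order around FCER1A and from FCGR2A to FCRLB. Distances are gene order, not bases. FCGR2A, FCGR2C and FCGR2B stand at -4.48, -3.83 and -3.46 in g2_1 and at -4.22, -3.54 and -3.11 in g3_4. HSPA6, FCGR3A and FCGR3B between them stand near 0, with control means of 5.55, 4.62 and 4.18 that left little room to fall.

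Genes that carry the signal of ITAM and ITIM receptors moved in both directions. Of 28 measured, 5 were higher and 5 lower in both clones, 17.9% each, against 4.48% and 6.97% of all transcript clusters, and the median averaged difference was 0.09. The largest change was in GAB2, an adaptor needed for mast cell responses through the IgE receptor in mice. GAB2 measured 5.32, 5.31 and 5.49 in g2_1 and 5.61, 5.50 and 5.41 in g3_4, against 8.28, 9.27 and 8.92 in control cells, an averaged change of -3.38 (adjusted p = 2.29e-07).

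VAV2, a signalling protein that is phosphorylated downstream of ITAM receptors, fell by 1.63 on the log2 scale (adjusted p = 6.41e-05). HCST (DAP10), an adaptor that signals to PI3-kinase, fell by 1.20 (adjusted p = 1.01e-04), and PLCG1, a phospholipase C, fell by 1.02 (adjusted p = 0.00281), all clones averaged. The fifth, named after its values were seen, was LCP2 (SLP-76), a scaffold of the same pathway, which fell by 0.58 (adjusted p = 0.0015). These 5 genes were lower on every clone array than on any control array. With unequal variances GAB2 (adjusted p = 0.11), VAV2 (0.173), HCST (0.201) and PLCG1 (0.257) did not pass.

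Among the genes that rose, LYN, the Src-family kinase that phosphorylates ITAMs and ITIMs, measured 10.29, 10.29 and 10.32 in g2_1 and 10.22, 10.28 and 10.25 in g3_4, against 9.66, 9.32 and 9.46 in control cells. The groups did not overlap and the averaged change was 0.80 (adjusted p = 1.04e-04). CD247, the CD3 zeta chain, which is related to FCER1G and can replace it in some receptors, rose by 1.20 (adjusted p = 0.0021). DOK2, an adaptor that restrains tyrosine kinase signals, rose by 1.27 (adjusted p = 8.02e-05) and LAT2, an adaptor named after its values were seen, by 0.68 (adjusted p = 1.12e-04). With unequal variances LYN (adjusted p = 0.159), CD247 (0.309) and DOK2 (0.138) did not pass.

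PLCG2, the phospholipase C of B cells, measured 6.08, 6.26 and 6.35 in g2_1 and 7.29, 7.47 and 7.11 in g3_4, against 5.63, 5.41 and 6.02 in control cells. It was higher by 0.54 in g2_1 (adjusted p = 0.0434) and by 1.60 in g3_4 (adjusted p = 5.85e-05), and the difference between the clones did not pass (-1.06, adjusted p = 0.0599). Its g2_1 value did not pass without any 1 of the g2_1 or g3_4 arrays, nor without control array 1 or control array 2, with adjusted p from 0.0512 (without g3_4 array 3) to 0.145 (without control array 2, 0.41). With unequal variances PLCG2 did not pass in g2_1 (adjusted p = 0.375), in g3_4 (0.139) or averaged (0.17). SYK, the kinase that binds phosphorylated ITAMs, BTK, and the ITIM-recruited phosphatases PTPN6 and INPP5D were not called, with averaged differences of 0.06 to 0.10. SYK, BTK and PTPN6 lay below the first quartile on all arrays.

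**Figure D4:**
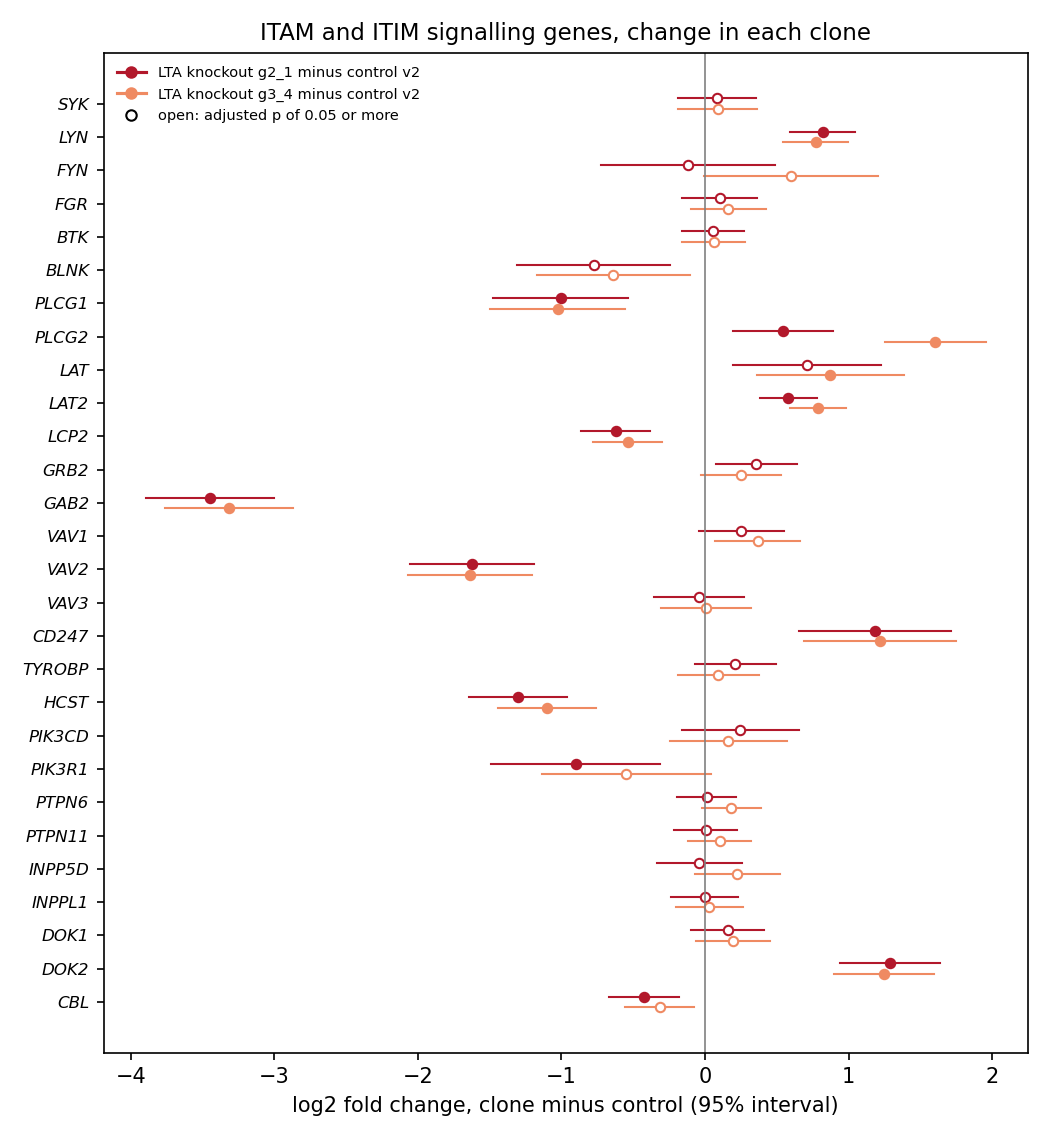
Log2 fold change against control of 28 genes of ITAM and ITIM signalling in clone g2_1 and clone g3_4, with 95% intervals from limma and open symbols where the adjusted p was 0.05 or more. GAB2 stands lowest at -3.45 and -3.32, and PLCG2 highest in g3_4 at 1.60.

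Markers of cells that carry these receptors were read on the same arrays. Of 11 measured mast cell and basophil markers, 2 were lower in both clones and 0 higher, where 6.97% of all transcript clusters were lower and 4.48% higher. CMA1, the mast cell protease chymase, measured 4.69, 4.38 and 4.46 in g2_1 and 4.52, 4.54 and 4.25 in g3_4, against 8.40, 7.65 and 8.49 in control cells. ENPP3 (CD203c), a basophil surface enzyme, measured 4.23, 4.35 and 4.46 in g2_1 and 4.49, 4.01 and 4.57 in g3_4, against 7.86, 6.19 and 6.58 in control cells. The defining mast cell genes KIT and CPA3 and the prostaglandin synthase HPGDS lay below the first quartile on all 9 arrays, 3 of the 11. Others lay above it on all arrays and were not called, among them the tryptases TPSAB1 (6.66 to 7.10 on the clone arrays, 6.86 to 6.89 on the control arrays) and TPSB2 (4.77 to 4.89 and 4.80 to 5.02) and HDC, which makes histamine (5.11 to 5.29 and 5.16 to 5.20). Summed on the linear scale, the list ran from 378 to 405 in g2_1 and from 365 to 396 in g3_4, against 614 to 913 in control cells. This sum includes CMA1 and ENPP3. The other 9 markers were not called in g2_1, in g3_4 or averaged, so the sum does not show a fall of the whole list.

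Of 12 monocyte markers 1 was lower in both clones, AIF1 (-0.86), a share near that of all transcript clusters. CD68 was higher averaged (0.69, adjusted p = 0.0234) and in g3_4 (0.73, adjusted p = 0.0401) but not in g2_1 (0.64, adjusted p = 0.0723). The summed list overlapped between groups, at 531 to 602 in g2_1 and 474 to 587 in g3_4, against 488 to 597 in control cells. LYZ, a main product of monocytes, lay below the first quartile on all arrays, as did 5 of the 12 in all, while CSF1R lay between 6.95 and 7.66 on the clone arrays and between 7.32 and 7.77 on the control arrays. The dendritic cell list of 9 had no call in both clones. Of 7 NK cell markers 1 rose in both clones, PRF1 (1.14). Among 8 measured B cell markers EBF1 (1.25) and BLK (0.89) rose in both clones while PAX5 (-0.81) and POU2AF1 (-1.52) fell. Among 10 Hodgkin markers TNFRSF8 rose (0.75) in both clones while GATA3 (-1.46) and CD274 (-2.20) fell. Of all transcript clusters, 4.48% were called higher and 6.97% lower in both clones. Averaged over the clones, 3 of the 10 Hodgkin markers were called higher and 4 lower, against 8.13% and 9.83% of all transcript clusters. The averaged falls included CCL17 (-0.95, adjusted p = 0.0202) and NFKB2 (-0.65, adjusted p = 0.0187), neither called in both clones. With unequal variances the averaged changes of CMA1, ENPP3, AIF1, PRF1, EBF1, BLK, PAX5, POU2AF1 and TNFRSF8 did not pass (adjusted p of 0.083 to 0.393), and GATA3 (0.0529 in g2_1, 0.0694 in g3_4) and CD274 (0.0858 and 0.0995) did not pass in either clone. In single clones AIF1, EBF1 and BLK were also lost without some single arrays, with adjusted p of up to 0.0763 for AIF1 (g3_4, without g3_4 array 2), 0.0949 for EBF1 (g3_4, without g3_4 array 3) and 0.0887 for BLK (g2_1, without g2_1 array 2). RNA integrity numbers of arrays 1, 2 and 3 were 10, 9.6 and 9.5 in g2_1. They were 10, 9.5 and 9.5 in g3_4 and likewise in control cells. The part of other cells, of cell state and of RNA quality in the receptor falls was not tested.

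The genes whose pattern over the 9 arrays was most like that of each fallen member were taken by the root mean square difference of the values, each gene centred on its own mean. For FCER1A they were SULF1 (0.24), SLC16A4 (0.24) and CCL2 (0.35), in log2 units. SULF1 averaged 5.0 in g2_1 and 4.81 in g3_4, against 11.78 in control cells, and CCL2, a chemokine for monocytes, 5.29 and 4.84 against 11.84. For FCGR2A they were IL1RL1 (0.30), the receptor of IL-33, then ALPK2 (0.32) and CEP15 (0.32). For FCGR2B they were LRRC32 (0.17), MAGEB2 (0.19) and SEPTIN11 (0.20). All 9 share a large step between the clones and the control, which sets most of the likeness.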

How the data were processed

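RNA of 9 arrays was analysed. Per the submitters' processing notes, the deposited log2 values were made with RMA in Transcriptome Analysis Console 4.0; they carry 2 decimals and no detection flags. The genome build is not given in the sources used here. Of 21448 rows, 555 with IDs of unmapped probe sets were left out. Of the 20893 tested, 17705 had 1 gene symbol from the platform annotation, 0 had several and 3188 were unnamed; RefSeq (GRCh38.p14) gave gene order and promoter sequence. limma 3.58.1 in R 4.3.3 was fitted to all 9 arrays (lmFit and eBayes, no trend, not robust, 1 coefficient for each group), two-sided, with Benjamini-Hochberg adjustment over all tested rows. Named genes were the members, the wider family, called members of the other lists, the nearest genes in order, and the 3 most alike. Members and lists were chosen with earlier results of these data known. The script was tested on simulated data. Between the clones, same-numbered arrays had correlated deviations from their group means (0.435, 0.191 and 0.31) but not throughout against control (0.0426 and 0.0565 for number 2), so the number was no block in the fit. The number of arrays limits precision.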

Additional observations from a re-analysis of the deposited data

How the results depend on the processing

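FCER1A, FCGR2A and FCGR2B were called lower in g2_1, in g3_4 and averaged under every alternative run except the test with unequal variances, where 1 member, FCER1A, passed in each of the 3 comparisons. Under that test the wider family had 1 call in g2_1 and 2 in g3_4, against 6 and 5 by limma. Averaged, it had 4 (FCER1A, FCER2, FCGR2C and PIGR), against 5 by limma. The cause was not tested. Centring arrays on their median gave 8 calls in the wider family averaged, against 5, adding PIGR, TRIM21 and B2M. Leaving out 1 array at a time kept 3 member calls, with averaged changes of -7.44 to -7.17 for FCER1A, -4.59 to -4.13 for FCGR2A and -3.40 to -3.10 for FCGR2B. Of 580 values of the members under alternatives, 574 kept their side of the threshold and none was reversed. Most of the 580 belong to results that were not called in the main fit. The 6 that lost their call were those of FCGR2A and FCGR2B against control in the test with unequal variances. With the array number as a replicate block, the members were called as before (FCER1A averaged, adjusted p = 1.94e-09), and pairing changed no member's call. Values near the first quartile (4.64) limit folds of FCER1A and FCGR2B, and signal over background is unknown.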
